A study of Mus musculus with 3 samples.

Results

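The genes described here are the 39 mouse Hox genes and the noncoding transcript Halr1. They were chosen by gene symbol (Hoxa, Hoxb, Hoxc or Hoxd followed by digits, plus Halr1), with earlier results of these data known. They make up 40 of the 50043 gene IDs in RNA sequencing of the mouse embryonic stem cell line KH2, which is built to take up doxycycline-controlled transgenes. The cells carry an inducible knockout of Pold3, which encodes a small subunit of the lagging-strand polymerase delta. There were 3 libraries of total RNA, 1 each from passages P0, P1 and P2, and the study asked how transcript levels differ between passages. All 3 groups share the cell line and the inducible allele. The labels give neither the agent and timing of the induction, the Cre or promoter used, the number of clones, nor an uninduced series of the same passages, so passage and the knockout cannot be told apart. With a single library at each passage, replicate error is unknown and p-values are not given.

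Hox genes encode homeodomain transcription factors that give cells their position along the body axis. They stand in 4 clusters, HoxA on chromosome 6, HoxB on chromosome 11, HoxC on chromosome 15 and HoxD on chromosome 2, with 11, 10, 9 and 9 genes. Within a cluster the genes are numbered by paralog group from 1 at the 3' end to 13 at the 5' end. In the embryo the 3' genes come on first and furthest forward and the 5' genes later and further back. In embryonic stem cells the clusters are largely silent, held by Polycomb complexes that mark their chromatin, and retinoic acid and Wnt signals can open them. Halr1 is a long noncoding RNA transcribed from beyond the 3' end of HoxA, and it has been described as a regulator of HoxA activation.

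Levels are deposited FPKM values, reads scaled to gene length and library size. The reads behind each value were recovered from the table, with totals of 23213528 at P0, 18059914 at P1 and 22405670 at P2. At these depths 3 reads on a gene of 2 kb are worth 0.0646, 0.0831 and 0.0669 FPKM, and less than that cannot be told from none. The targeted gene Pold3 measured 49.2, 13.03 and 11.6 FPKM from 1389, 286 and 317 reads, so it was lower in the libraries labelled P1 and P2. The labelled cell type was checked on 8 embryonic stem cell markers, whose summed level was 4095, 3946 and 4239 FPKM. Of these, 0 rose or fell (defined below) in any of the 3 comparisons, where 6.72% and 1.16% of all genes did at P2. Their median log2 differences from P0 were -0.16 at P1 and -0.18 at P2. Single markers differed in both directions by less than that definition requires, so the check is of identity and not of equal levels. Ratios carry exact conditional 95% intervals that cover counting error only and compare libraries, not conditions. Rose and fell are used for a difference of at least 1 in log2(FPKM + 1), provided that 1 or both libraries had 1 FPKM or more. P1 and P2 are both compared with the same P0 library.

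The clusters were nearly silent in these cells, and Halr1 was the exception. Of the 40 members, 2 reached 1 FPKM at P0, 3 at P1 and 4 at P2, and 36 of the 39 Hox genes stayed below it in all 3 libraries. The 4 members that reached it were Halr1, Hoxb9, Hoxc13 and Hoxd13. At P1 Halr1 fell, and at P2 Hoxc13 rose. Hox genes with any read numbered 31, 28 and 33, and Hoxb2, Hoxc8 and Hoxd3 were listed at 0 in every library.

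Only 3 or 4 members could be compared in each pair of libraries. In P1 against P0, 0 of 3 members compared rose and 1 fell, where 4.12% of 13288 genes compared rose and 0.549% fell. In P2 against P0, 1 of 4 rose and 0 fell, where 6.72% of 13472 rose and 1.16% fell. In P2 against P1, 0 of 4 rose and 0 fell, where 0.78% of 13585 rose and 0.883% fell. The members' median differences were -0.13, 0.52 and 0.52 on the log2 scale, beside 0.06, 0.07 and 0.02 over all genes compared. Quantile normalization, which forces 1 common distribution on the libraries, moved the share of rises among changed genes from 88.2% to 74.9% at P1 and from 85.3% to 70.5% at P2.

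Halr1 (ENSMUSG00000085412) was the most abundant member in each library and the one that fell. It measured 34.4 FPKM at P0, 11.2 at P1 and 17.2 at P2, from 349, 88 and 168 reads. P0 was the highest library and P1 the lowest, with P2 between them. Relative to P0, the level at P1 was lower by a factor of 3.09 (interval 2.44 to 3.94) and that at P2 by a factor of 2.01 (interval 1.66 to 2.42). Between P1 and P2 it was 1.54-fold higher (interval 1.18 to 2.01). On the log2 scale the differences from P0 were -1.54 at P1, past the threshold, and -0.96 at P2, short of it. With median-of-ratios scaling and with quantile normalization the P2 value was -1.09 and -1.03, past the threshold. In bulk RNA, fewer cells with a transcript and less of it per cell cannot be told apart. In the M21 annotation Halr1 shares no exon base with another gene.

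**Figure D1:**
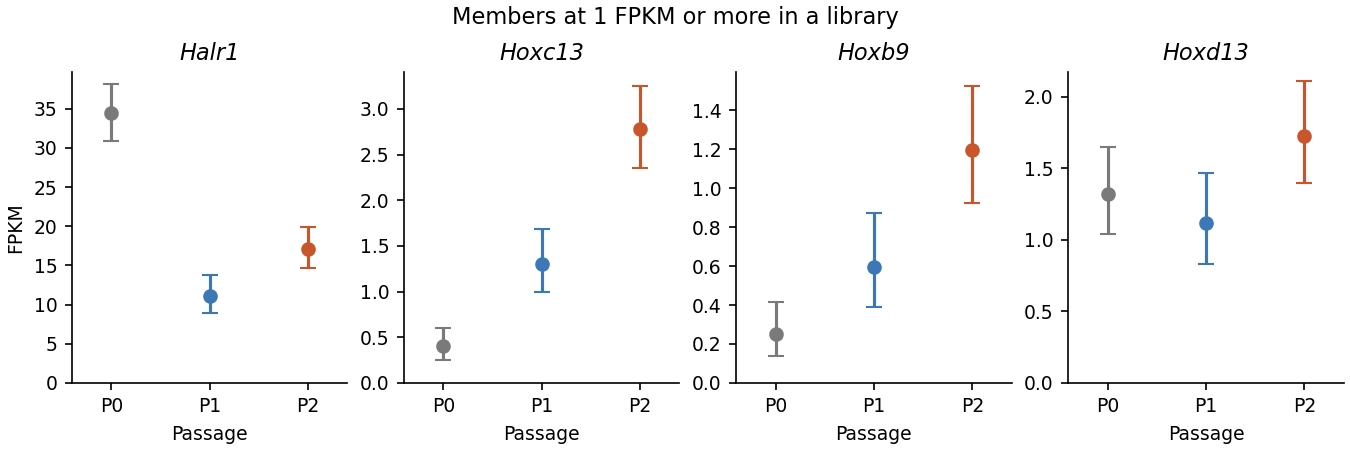
FPKM of the 4 members that reached 1 FPKM, by passage, with exact 95% intervals for counting error on each point and a separate vertical scale for each gene. Halr1 is highest at P0 (34.4) and lowest at P1 (11.2), Hoxc13 and Hoxb9 are higher at each later passage, and the Hoxd13 intervals at P0 and P2 overlap.

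Hoxc13 (ENSMUSG00000001655), the most 5' gene of HoxC, known for its part in hair and nail formation, was the 1 Hox gene that rose. It measured 0.403, 1.30 and 2.77 FPKM from 23, 58 and 153 reads, so each later library was above the one before. Relative to P0, P1 was 3.24-fold higher (interval 1.97 to 5.51) and P2 6.89-fold higher (interval 4.43 to 11.2). P2 was 2.13-fold above P1 (interval 1.56 to 2.93). The difference on the log2(FPKM + 1) scale was 0.72 at P1 and 1.43 at P2, a scale that understates changes in genes this low. With a pseudocount of 0.1 in place of 1 the P1 difference was 1.48, past the threshold.

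Hoxb9 (ENSMUSG00000020875), a gene of the posterior trunk, had the same order of libraries at lower levels. It measured 0.249, 0.594 and 1.20 FPKM from 14, 26 and 65 reads. The ratio to P0 was 2.39 at P1 (interval 1.20 to 4.95) and 4.81 at P2 (interval 2.67 to 9.28), and P2 was 2.02-fold above P1 (interval 1.26 to 3.31). Its difference at P2, 0.82 on the log2(FPKM + 1) scale, did not reach the threshold, though with a pseudocount of 0.1 it was 1.89 and with rescaling to a sum of 1000000 per library 1.009.

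Hoxd13 (ENSMUSG00000001819), the most 5' gene of HoxD, which patterns digits and the urogenital end of the body, was the most abundant Hox gene at P0. It measured 1.32, 1.12 and 1.73 FPKM from 76, 50 and 96 reads. P1 was the lowest library and P2 the highest, and both ratios to P0 had intervals that held 1, at 0.846 for P1 (interval 0.580 to 1.22) and 1.31 for P2 (interval 0.959 to 1.79). From P1 to P2 the ratio was 1.55 (interval 1.09 to 2.22). With quantile normalization the log2 difference of P2 from P0 went from 0.23 to -0.04, so P0 was then the highest library.

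A further 6 Hox genes had 20 or more reads over the 3 libraries, all below 1 FPKM, and 5 of them are described here. Hoxa7, of the trunk, had 4, 11 and 17 reads, with ratios to P0 of 3.53 at P1 (interval 1.05 to 15.2) and 4.40 at P2 (interval 1.44 to 18.0). In M21 it shares exon bases with Hoxaas3, which had 0, 0 and 2 reads. Both had their highest read count at P2.

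Hoxb8, a trunk gene also active in blood progenitors, had 1, 5 and 16 reads, and its P2 to P0 ratio of 16.6 was the highest among members with 20 or more reads. The interval of 2.58 to 695 shows how little the single P0 read fixes that value. Hoxb1, a hindbrain gene, had 7, 3 and 14 reads, and P2 was 3.76-fold above P1 (interval 1.05 to 20.4), while its ratio of P2 to P0, 2.07, had an interval of 0.783 to 6.07. Hoxb13, known from the prostate and tail bud, had 10, 8 and 15 reads. Hoxd1 had 9, 5 and 13 reads, and the intervals of all its ratios held 1, as did those of Hoxb13.

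**Figure D2:**
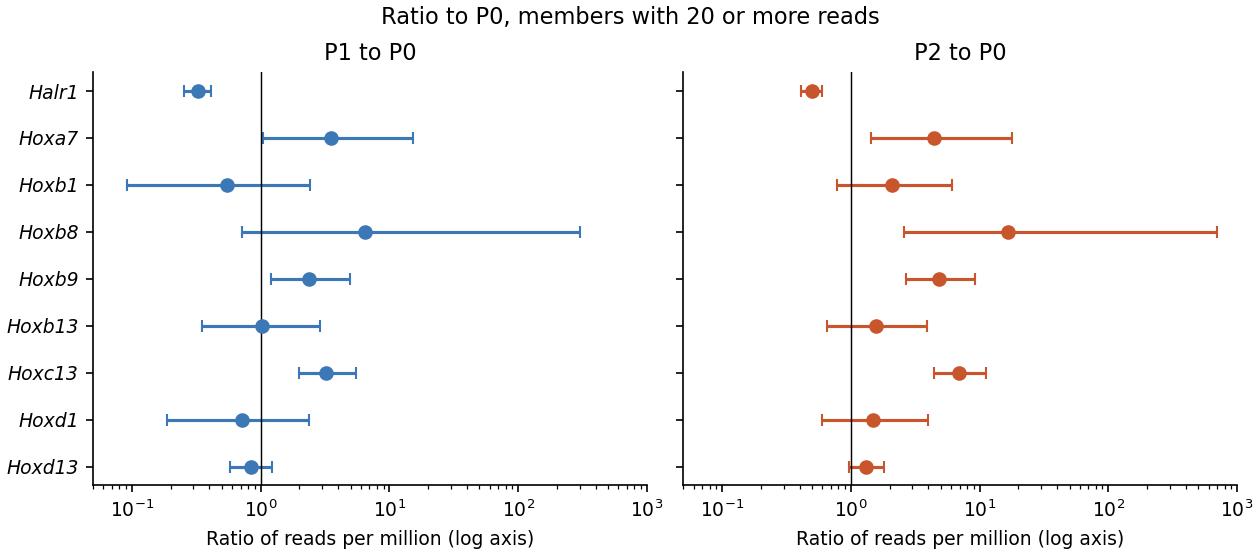
Ratio of depth-scaled reads (per 1000000 counted) to P0 at P1 (left) and P2 (right) on a log axis, for 9 of the 10 members with 20 or more reads, with exact 95% intervals for counting error. Halr1 lies below 1 in both panels, and at P2 the intervals of Hoxa7, Hoxb8, Hoxb9 and Hoxc13 lie above 1.

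By that interval, 3 of the 10 members with 20 or more reads lay above P0 at P1 (Hoxa7, Hoxb9 and Hoxc13) and 1 below (Halr1). Among all 16540 genes with 20 or more reads, 32.3% lay above and 18.8% below. At P2, 5 of 10 lay above P0 and 1 below, where 37.7% and 21.9% of all genes did. In P2 against P1, 5 of 10 lay above (Halr1, Hoxb1, Hoxb9, Hoxc13 and Hoxd13) and 0 below, where 21.6% and 16.5% of all genes did. Among genes with a mean level below 1 FPKM, 4 of 7 members lay above P0 at P2 and 0 below, where 33.3% and 5.91% of 3793 genes did. The shares at P1 were thus close to those of all genes, and higher values were common among low genes in general.

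The other 27 Hox genes with reads had 1 to 19 in the 3 libraries together. Their reads summed to 56, 43 and 112, a ratio of 0.987 at P1 (interval 0.647 to 1.495) and 2.07 at P2 (interval 1.49 to 2.91). In HoxA, Hoxa10 had 1, 0 and 10 reads, and Hoxa13, the most 5' gene of the cluster, had 0, 2 and 11, at least 3.80-fold higher at P2 than 3 reads would give at P0. Hoxa5 had 7, 2 and 7 reads, Hoxa3 5, 1 and 3, and Hoxa4 5, 0 and 1. Hoxa2, Hoxa6, Hoxa9 and Hoxa11 had at most 4 reads in any library. In HoxB, Hoxb4 had 8, 0 and 7 reads, and Hoxb3, Hoxb5, Hoxb6 and Hoxb7 had at most 5 in any library. Hoxb4 was the 1 Hox gene whose P1 to P0 interval lay below 1, with an upper bound of 0.753.

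In HoxC, Hoxc6 had 1, 5 and 8 reads, a P2 to P0 ratio of 8.29 (interval 1.11 to 368), and Hoxc5 had 0, 1 and 6, at least 2.07-fold higher at P2 than 3 reads at P0. Hoxc4 had 1, 3 and 5 reads, and Hoxc9, Hoxc10, Hoxc11 and Hoxc12 had at most 3 in any library. In HoxD, Hoxd10 had 0, 1 and 6 reads, Hoxd11 2, 4 and 9, and Hoxd9 1, 4 and 7, all with their highest count at P2. Hoxd4, Hoxd8 and Hoxd12 had at most 4 in any library. In M21, 16 of the 40 members share an exon base with another gene, among them Hoxc5 with Hoxc10, Hoxd3 with Hoxd4, and Hoxb2 with the antisense Hoxb3os. No source used here gives the strand of the libraries or the treatment of shared reads, so these members are uncertain.

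**Figure D3:**
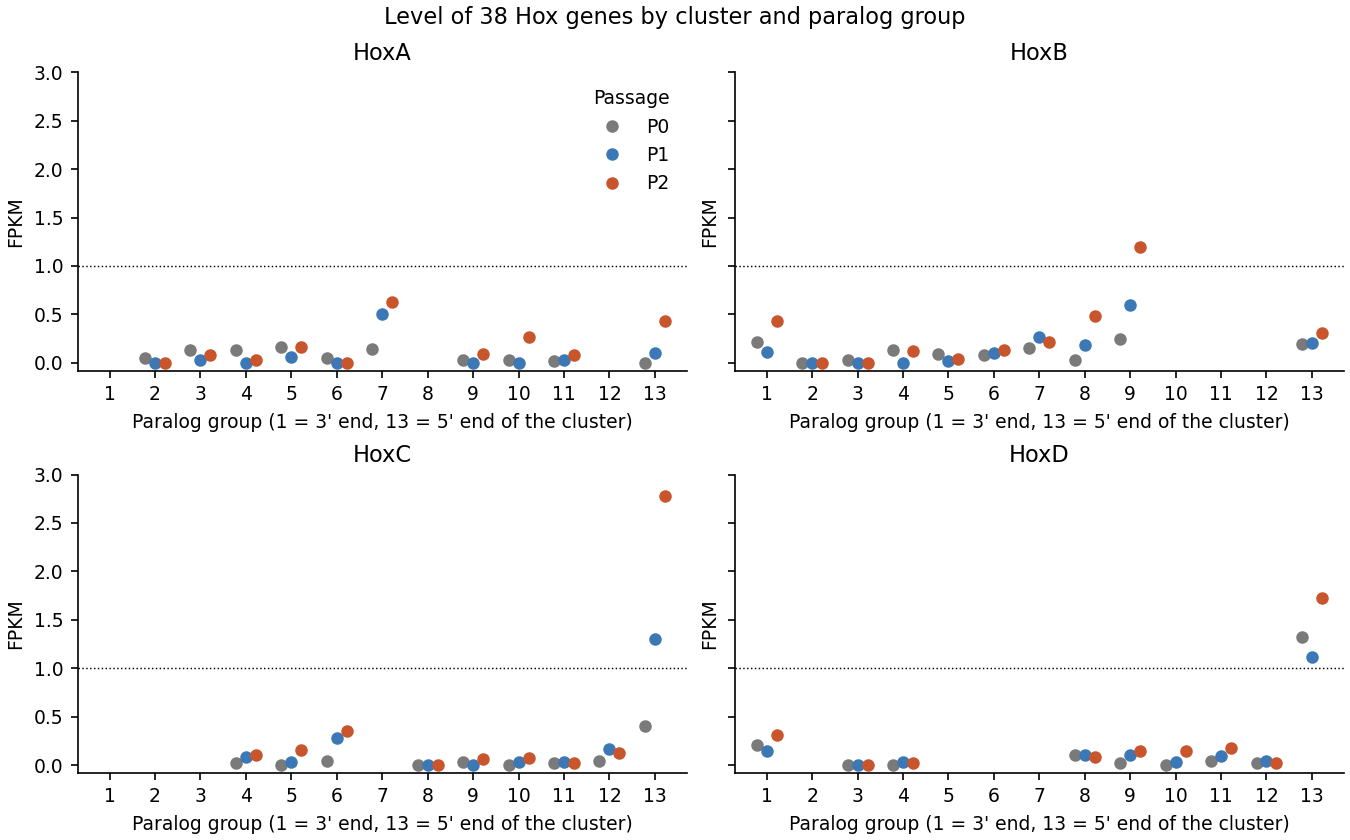
FPKM of 38 of the 39 Hox genes at P0, P1 and P2, by cluster and paralog group, with a dotted line at 1 FPKM and a group left blank where no gene is drawn. Values above the line are those of Hoxb9 at P2, Hoxc13 at P1 and P2, and Hoxd13 in all 3 libraries.

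Summed over the 39 Hox genes, the level was 4.50 FPKM at P0, 6.20 at P1 and 11.7 at P2, from 216, 225 and 533 reads. The ratio of depth-scaled reads to P0 was 1.34 at P1 (interval 1.11 to 1.62) and 2.56 at P2 (interval 2.18 to 3.01), and P2 was 1.91-fold above P1 (interval 1.63 to 2.24). Without Hoxb9, Hoxc13 and Hoxd13 the reads numbered 103, 91 and 219. The P1 ratio was then 1.14, with an interval that held 1 (0.847 to 1.52), and the P2 ratio 2.20 (interval 1.74 to 2.81). The P1 ratio of summed FPKM, 1.38, was below 1 with quantile normalization (0.953), and the P2 ratio went from 2.59 to 1.70. Low genes were higher at the later passages in general. Over all 13437 IDs with a mean below 1 FPKM, the same ratio of summed FPKM was 1.34 at P1 and 1.45 at P2, and with quantile normalization 0.943 and 0.959. At P1 the Hox sum and the sum of low genes thus had nearly equal ratios under both scalings, while at P2 the Hox ratio was the higher under both. The Hox sum includes Hoxc13 and Hoxd13, whose means are above 1 FPKM. Without Hoxb9, Hoxc13 and Hoxd13 its ratio of summed FPKM as deposited was 1.26 at P1 and 2.36 at P2. The step from P1 to P2 was 1.88 for the Hox genes and 1.08 for the low genes.

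Counted without a threshold, 21 of 36 Hox genes with reads in 1 or both libraries were higher at P1 than at P0 and 15 lower. At P2, 28 of 36 were higher than at P0 and 8 lower, and against P1, 27 of 33 were higher and 6 lower. Among all IDs with a mean below 1 FPKM, 63.7%, 68.4% and 55.3% were higher in these comparisons. Most of these genes rest on a few reads, so single directions carry little weight.

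HoxC had the largest ratios of the 4 clusters. Its reads numbered 28, 72 and 181, a ratio to P0 of 3.31 at P1 (interval 2.11 to 5.31) and 6.70 at P2 (interval 4.48 to 10.4). Hoxc13 held most of them, and the other 8 HoxC genes together had 5, 14 and 28 reads, a P2 ratio of 5.80 (interval 2.21 to 19.2). The HoxC share of all Hox reads was 12.96% at P0, 32.0% at P1 and 34.0% at P2.

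HoxB reads numbered 52, 50 and 128, with ratios of 1.24 at P1 (interval 0.821 to 1.86) and 2.55 at P2 (interval 1.83 to 3.59). Without Hoxb9 the cluster had 38, 24 and 63 reads, and the P2 ratio was 1.72 (interval 1.13 to 2.64). HoxA reads numbered 43, 33 and 88, with ratios of 0.986 at P1 (interval 0.607 to 1.59) and 2.12 at P2 (interval 1.46 to 3.13). Most of the HoxA increase in reads did not come from the 3' genes next to Halr1. Paralog groups 1 to 3 of HoxA had 23, 17 and 35 reads, a P2 ratio of 1.58 (interval 0.906 to 2.79), and groups 9 to 13 had 3, 3 and 28, a ratio of 9.67 (interval 2.99 to 49.7).

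HoxD reads numbered 93, 70 and 136, with ratios of 0.967 at P1 (interval 0.699 to 1.33) and 1.52 at P2 (interval 1.16 to 1.99). It was the cluster with the most Hox reads at P0, 43.1% of them, and gave 25.5% at P2. Without Hoxd13 it had 17, 20 and 40 reads, a P2 ratio of 2.44 (interval 1.35 to 4.59). With quantile normalization the P2 ratios of summed FPKM were 1.44 for HoxA, 1.59 for HoxB, 4.25 for HoxC and 1.05 for HoxD, against 2.29, 2.500, 6.58 and 1.54 as deposited. The P1 ratios of HoxA and HoxB, 1.06 and 1.27 as deposited, were 0.706 and 0.849 with it, so their direction at P1 is not fixed.

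**Figure D4:**
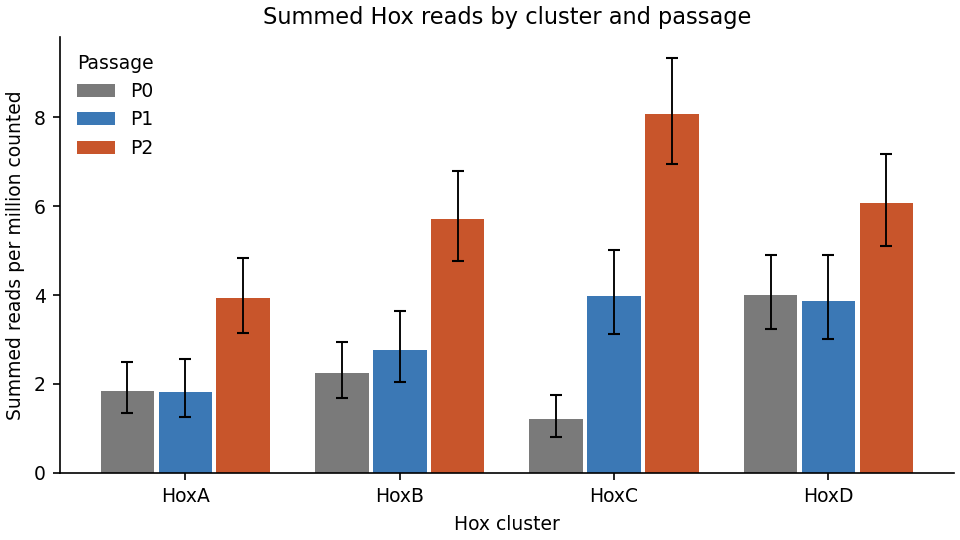
Summed reads per 1000000 counted for the genes of each Hox cluster at P0, P1 and P2, with exact 95% intervals for counting error. HoxC goes from the lowest of the 4 clusters at P0 (1.21) to the highest at P2 (8.08), and HoxA, HoxB and HoxD are each highest at P2.

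Over the 4 clusters together, the 5' genes held most reads in each library, and most of these came from Hoxb9, Hoxc13 and Hoxd13. Paralog groups 9 to 13 had 133, 161 and 389 reads, groups 4 to 8 had 43, 39 and 82, and groups 1 to 3 had 40, 25 and 62. The P2 to P0 ratio was 3.03 for groups 9 to 13 (interval 2.48 to 3.72), 1.98 for groups 4 to 8 (interval 1.35 to 2.93) and 1.61 for groups 1 to 3 (interval 1.06 to 2.45). Without Hoxb9, Hoxc13 and Hoxd13, groups 9 to 13 had 20, 27 and 75 reads and a ratio of 3.89 (interval 2.35 to 6.72). These reads were fewer than those of groups 4 to 8 in each library, and fewer than those of groups 1 to 3 at P0. HoxC, the cluster with the largest ratio, has no gene in groups 1 to 3, so the pooled ratios do not compare like with like. Within HoxB the P2 ratio was 1.81 for groups 1 to 3 (interval 0.710 to 4.99), 1.76 for groups 4 to 8 (interval 0.985 to 3.23) and 3.45 for groups 9 to 13 (interval 2.17 to 5.70). Within HoxD groups 1 to 3 and 9 to 13 were about equal, at 1.497 (interval 0.592 to 3.97) and 1.54 (interval 1.15 to 2.07), and groups 4 to 8 had 4 reads in each library. Within HoxA the ratio was 1.58 for groups 1 to 3 (interval 0.906 to 2.79), 1.52 for groups 4 to 8 (interval 0.791 to 3.01) and 9.67 for groups 9 to 13 (interval 2.99 to 49.7). Within HoxC it was 9.84 for groups 4 to 8 (interval 2.37 to 87.1) and 6.46 for groups 9 to 13 (interval 4.25 to 10.2). Groups 1 to 3 thus had a lower ratio than groups 9 to 13 in all 3 clusters that hold them, though by little in HoxD. Only in HoxA did their interval and that of groups 9 to 13 not overlap. The lowest ratio in these clusters was that of groups 4 to 8, with intervals that overlapped those of groups 1 to 3.

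Promoter sequences are shown for Halr1, the member that fell, for Hoxb8, the Hox gene with the highest ratio among those with 20 or more reads, and for Hoxd13, the most abundant Hox gene at P0, to show how their CpG content differs. Each runs from 250 bases before to 50 after the RefSeq start on GRCm38.p6, plus strand, with CpG dinucleotides in capitals. They lie at chr6:52102699-52102998, chr11:96281655-96281954 and chr2:74667975-74668274.
Halr1: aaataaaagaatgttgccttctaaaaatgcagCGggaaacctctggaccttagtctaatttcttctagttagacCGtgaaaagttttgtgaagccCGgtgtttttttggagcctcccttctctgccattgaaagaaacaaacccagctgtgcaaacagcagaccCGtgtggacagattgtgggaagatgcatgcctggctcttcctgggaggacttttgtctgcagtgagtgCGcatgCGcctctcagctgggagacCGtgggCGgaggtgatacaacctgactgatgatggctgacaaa
Hoxb8: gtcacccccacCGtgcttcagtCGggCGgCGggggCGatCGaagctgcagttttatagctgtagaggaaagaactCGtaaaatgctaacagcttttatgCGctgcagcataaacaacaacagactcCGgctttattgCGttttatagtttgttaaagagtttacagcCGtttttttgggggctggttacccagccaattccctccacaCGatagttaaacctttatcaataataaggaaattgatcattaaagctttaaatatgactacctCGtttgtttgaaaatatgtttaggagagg
Hoxd13: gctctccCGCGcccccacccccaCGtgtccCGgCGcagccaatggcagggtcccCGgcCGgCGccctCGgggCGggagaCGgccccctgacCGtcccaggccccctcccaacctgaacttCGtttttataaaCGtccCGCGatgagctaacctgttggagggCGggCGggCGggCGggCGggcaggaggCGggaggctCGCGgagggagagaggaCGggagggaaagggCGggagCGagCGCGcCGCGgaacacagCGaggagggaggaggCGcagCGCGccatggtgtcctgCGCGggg

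The Halr1 promoter held 8 CpG and 49.0% G and C, close to the median of 7 CpG and 52.7% over 32851 mouse promoters. The Hoxb8 promoter held 13 CpG and 42.3% G and C, and that of Hoxd13 37 CpG and 74.3%. The reference table held promoters for 23 of the 40 members, 24 of them for 22 Hox genes, with 4 to 45 CpG and a median of 14.5. Searched on both strands, the TATA box letters TATAAA were in the Hoxb8 and Hoxd13 windows and in 4 of 24 Hox promoters, against 13.6% of all promoters. The letters CCAAT were in 15 of 24 against 37.4%, and the retinoid receptor half-site AGGTCA in 7 of 24 against 16.3%. Its variant AGTTCA was in 2 of 24, Hoxd13 among them, against 13.99%. The caudal site TTTATG was in 5 of 24, Hoxb8 among them, against 11.9%. Halr1 held none of the 5. A match is a description of the letters only.

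Of a list of 15 noncoding transcripts of the clusters, 9 were listed at 0 in all libraries, among them Hotair and Hottip. The 1 on the list that reached 1 FPKM was Mir196a-1, the microRNA gene between Hoxb13 and Hoxb9, which measured 3.80, 8.69 and 9.19 FPKM and rose at P1 and P2. It rests on 9, 16 and 21 reads, with ratios of 2.29 (interval 0.951 to 5.87) and 2.42 (interval 1.06 to 5.995). Reads of total RNA libraries on so short a gene need not come from the mature microRNA. Its mature product miR-196a-5p is known to pair with the Hoxb8 transcript almost without mismatch and to direct its cleavage, so both sequences are shown. The first line has the seed, bases 2 to 8, in capitals, and the second the Hoxb8 site of 22 bases found in M21, with the 1 base that pairs as G:U in capitals.
miR-196a-5p: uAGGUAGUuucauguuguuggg
Hoxb8 site: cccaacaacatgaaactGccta

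The other 21 bases form Watson-Crick pairs, and 6 of the 7 seed bases do. Hoxb8 had its highest read count (16) in the library where Mir196a-1 also had its highest (21). Both genes lie in the 5' part of HoxB, and the read counts are too low to compare their courses.

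Several genes beside the HoxB genes or between them were at higher levels than the Hox genes themselves. Calcoco2, an autophagy receptor gene beyond the 5' end, was in the list of flanking genes and rose from 29.1 FPKM at P0 and 48.0 at P1 to 124 at P2, a 4.28-fold ratio (interval 3.98 to 4.62). In annotated order, Calcoco2 is followed by Ttll6, a tubulin-modifying enzyme gene, then by Hoxb13, the noncoding gene Gm53, Mir196a-1 and Hoxb9. Between Ttll6 and Gm53 also lie Gm11535, Gm27898, Gm27605 and Gm11539, with at most 5 reads in any library. Of these, Gm27605 had 4, 5 and 3 reads and Gm11539 had 4, 1 and 3. Ttll6 and Gm53 were chosen after their values were seen. Ttll6 measured 2.07, 8.01 and 9.50 FPKM, a P2 ratio of 4.58 (interval 3.86 to 5.47), and Gm53 measured 2.66, 6.01 and 7.24 FPKM from 82, 144 and 215 reads, a ratio of 2.72 (interval 2.10 to 3.55). In M21 Mir196a-1 lies outside Gm53 and shares no exon base with it. At the 3' end of HoxB, Skap1 had 3, 3 and 4 reads.

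**Figure D5:**
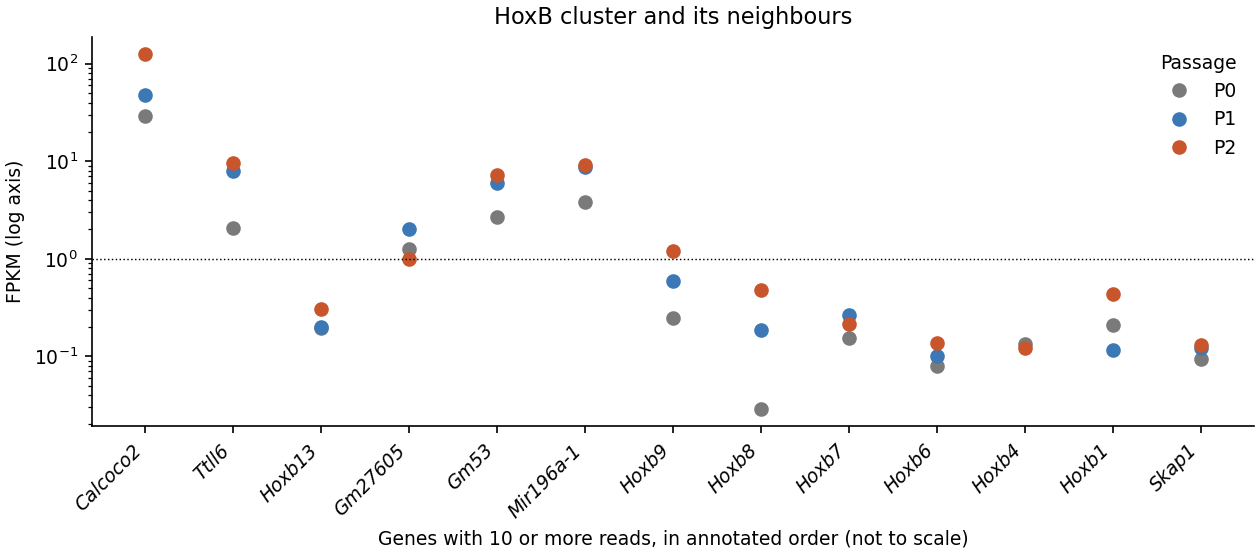
FPKM on a log axis of the HoxB genes and their neighbours with 10 or more reads, in annotated order from Calcoco2 to Skap1 and not to scale. A value of 0 (Hoxb4 at P1) is not drawn, and the dotted line marks 1 FPKM. Calcoco2 is highest at P2 (124), Ttll6, Gm53, Mir196a-1 and Hoxb9 are lowest at P0, and Skap1 stays near 0.1 in all 3 libraries.

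None of the listed flanking genes of the other clusters differed between P0 and P2 by as much as Calcoco2 on the log2(FPKM + 1) scale. The list covers all 4 clusters, Calcoco2 included, and some of its genes are not directly beside a cluster. Of its 14 genes with values, 12 were compared, with medians of 0.02 at P1 and -0.02 at P2. Calcoco2 was the 1 that rose at P2, where 6.72% of all genes compared rose, so 1 of 12 is no result about the flanking genes. Skap2, an adaptor gene beyond Halr1, measured 11.6, 7.11 and 6.91 FPKM, lower at both later passages as Halr1 was, and its P2 ratio was 0.596 (interval 0.519 to 0.683). Smug1, a DNA glycosylase gene beside HoxC, measured 3.90, 5.45 and 6.18 FPKM, and Hibadh, beyond the 5' end of HoxA, 11.0, 11.6 and 10.4 FPKM. Evx1, the even-skipped homolog next to Hoxa13, was chosen after its values were seen. It had 16, 15 and 35 reads, a P2 ratio of 2.27 (interval 1.22 to 4.39), and Evx2 beside Hoxd13 had 0, 0 and 3 reads.

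TALE cofactors are homeodomain proteins that bind DNA together with Hox factors. Of the 9 TALE cofactor genes (Pbx, Meis and Pknox families), 8 were compared and 0 rose or fell, with medians of -0.12 at P1 and 0.15 at P2. Over all genes compared, 6.72% rose and 1.16% fell at P2, so 0 of 8 is no result about these genes. Pbx2 measured 52.7, 36.0 and 37.3 FPKM, and Pbx3 12.4, 9.66 and 7.89. Pknox2 measured 0.819, 1.21 and 2.39 FPKM, and Meis1, a frequent partner of posterior Hox proteins, had 17, 32 and 58 reads, both highest at P2.

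The caudal genes, which act upstream of trunk and tail Hox genes, moved in different ways. Cdx1 measured 4.60, 1.17 and 6.38 FPKM, so it fell at P1 and was back above P0 at P2. Cdx2, also a trophoblast regulator, measured 0.171, 1.004 and 1.78 FPKM from 9, 41 and 90 reads and rose at P2, with a ratio to P0 of 10.4 (interval 5.22 to 23.4). Cdx4, also a caudal gene, had 8 reads in each library. Of the 6 ParaHox and caudal genes 3 were compared, and the third, Gsx1, measured 1.43, 1.84 and 1.76 FPKM. Thus 1 of 3 fell at P1 and 1 of 3 rose at P2, where 0.549% and 6.72% of all genes compared did. So few genes are no result about this list.

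Of 25 Polycomb and Trithorax genes, which keep Hox clusters silent or active, 23 were compared at P1 and 24 at P2. Of these 0 rose or fell, with medians of -0.11 and -0.13. Over all genes compared, 4.12% rose and 0.549% fell at P1, and 6.72% rose and 1.16% fell at P2. So few calls among so few genes are no result about these genes, and differences below the threshold are not counted. The largest differences between P0 and P2 were in Cbx8, a Polycomb reader, with 0.343, 0.373 and 1.26 FPKM, in Phc2 with 23.6, 25.2 and 35.7 FPKM, and in Pcgf2 with 55.3, 45.8 and 38.4 FPKM. A further list held 21 genes linked to signals of Hox induction (retinoid, Wnt, FGF and others), and not all of them act upstream of Hox genes. Of these 21, 12 were compared at P1 and 14 at P2, with medians of -0.02 and 0.35. Wnt3, a ligand gene, rose at both and measured 0.672, 3.37 and 5.72 FPKM. Stra6, a retinol transporter gene, measured 0.376, 0.524 and 1.69 FPKM. Stra8, a retinoid target and not an upstream signal, was singled out after its values were seen. It fell at P1 and measured 12.2, 2.28 and 13.2 FPKM, the lowest at P1 as Halr1 and Cdx1 were.

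Markers of other cell types also differed between the libraries, and their part in the Hox values was not tested. Over all genes compared, 4.12% rose and 0.549% fell at P1, and 6.72% rose and 1.16% fell at P2. The 6 trophoblast markers summed to 64.3, 104 and 135 FPKM, and 3 of the 5 compared rose at P2 (Cdx2, Gata3 and Krt8). The 10 fibroblast markers summed to 7.98, 19.6 and 21.6 FPKM. Of the 3 compared, Col1a1 and Thy1 rose at both later passages and Fbln2 at P1, while Postn was at 0 in all libraries and Dcn and Lum had at most 6 reads in any library. The 8 markers of primitive streak and mesoderm summed to 8.46, 11.9 and 17.8 FPKM, with Hand1 the 1 of 2 compared that rose, at P1 and P2. The 6 endoderm markers summed to 5.15, 6.93 and 9.74 FPKM, with Cxcr4 the 1 that rose, at P1 and P2, and the 8 neural markers to 22.9, 20.9 and 19.5 FPKM, where Sox1 and Pax6 fell at P1 and Neurod1 rose. In the trophoblast, fibroblast, mesoderm and endoderm lists the summed level was lowest at P0 and highest at P2, as the Hox sum was. The sum over all IDs with a mean below 1 FPKM had that order too, with ratios to P0 of 1.34 and 1.45. In the mesoderm and endoderm lists the order rested on Hand1 (0.827, 5.07 and 7.11 FPKM) and Cxcr4 (0.604, 2.49 and 2.80 FPKM). Some other genes of these lists were lowest at P1, so the shared order is no result about cell types.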

How the data were processed

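RNA from 3 samples was sequenced, 1 library per passage. The authors deposited 1 table of FPKM values for 50043 gene IDs, of which 49326 matched a symbol. Bowtie2 2.0.6, TopHat2 2.0.9 and build mm9 come from the submitters' processing notes, which as used here name no counting program, annotation or strand. Annotation and overlaps came from GENCODE M21 and sequences from RefSeq (GRCm38.p6), so no gene coordinates of the files are given.

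Each FPKM is whole reads over length and library total. Library totals and gene lengths were searched for that turn each value into a whole number, and 26291 of 26291 IDs above 0 gave whole reads within a relative tolerance of 1e-09. The lengths of all 37 members above 0 were within 1 base of the mean M21 transcript length. This match is partly built in, since M21 lengths were used to choose among the multiples that give whole reads. The reads summed to 100.5% of each total, and where the additional reads come from was not tested. Intervals are Clopper-Pearson at 95%, conditional on the reads of both libraries. They describe counting error alone, and copies of 1 molecule made by PCR would make them too narrow. The steps were tested on simulated data.

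The members, lists and the rule for named genes were chosen with earlier results of these data known. Members at 1 FPKM or more in a library are given in full, others with 20 or more reads by their reads, the rest by cluster. Of each list up to 3 genes with the largest difference between P0 and P2 are named, with Pold3, Cdx1, Cdx2, Meis1 and Hibadh. Values of some list genes and of 1 member are not reported here. The alternatives were leaving out Halr1, keeping members with 20 reads or more, a pseudocount of 0.1, no floor or one of 5 FPKM, and 3 scalings (quantile normalization, median of ratios, and a sum of 1000000 per library). Protein sequences were not used here. The software was Python 3.11.15 (scipy 1.17.1, numpy 2.4.6, matplotlib 3.10.9, pandas 2.3.3).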

Additional observations from a re-analysis of the deposited data

How the results depend on the processing

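Of the values under an alternative, 64 of 78 for counts and sums and 56 of 60 for medians and single members stayed the same. Same means within 1.5 times for counts and within the counting interval of the read ratio for sums. For single members it means a shift no larger than the distance from the middle to an end of that interval on the log2 scale. Medians use the median of these distances. That margin is lenient for log2(FPKM + 1), which compresses low genes. Hoxb9 at P1 went from 0.35 to 0.99 with a pseudocount of 0.1 and counts as same. Many of the unchanged counts were 0 throughout, and the minimum number of reads left the same members compared, so these shares say little about robustness. Same also covers changes of direction inside the counting interval. With quantile normalization the P1 ratio of summed FPKM went from 1.06 to 0.706 for HoxA and from 1.27 to 0.849 for HoxB. With a pseudocount of 0.1, the members that rose numbered 1 in place of 0 at P1 (Hoxc13), 2 in place of 1 at P2 (Hoxb9 and Hoxc13) and 1 in place of 0 in P2 against P1 (Hoxc13), and rescaling to a sum of 1000000 also gave 2 at P2. A floor of 5 FPKM left 0 rises at P2, since Halr1 alone was compared, and leaving out Halr1 left 0 falls at P1. Halr1 also counted as fallen at P2, 1 in place of 0, with median-of-ratios scaling and with quantile normalization. Quantile normalization gave ratios of summed FPKM at P2 of 1.44 for HoxA, 1.59 for HoxB, 4.25 for HoxC, 1.05 for HoxD and 1.70 for all Hox genes. At P1 it turned the ratio of all Hox genes from 1.38 to 0.953, and the cause was not tested. Among single values, those that moved were at a pseudocount of 0.1, where Hoxb9 and Hoxc13 at P2 were 1.89 and 2.52, Hoxc13 at P1 1.48 and the members' median at P2 1.13.

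Over all genes, a pseudocount of 0.1 took rises from 548 to 1079 and falls from 73 to 175 at P1, from 905 to 1569 and 156 to 286 at P2, and from 106 to 370 and 120 to 265 in P2 against P1. Rescaling took falls at P1 to 122, and in P2 against P1 rises to 183 and falls to 197, while quantile normalization took falls to 129 at P1 and 260 at P2. Median-of-ratios scaling moved the median of all genes by -0.11 at P1 and -0.12 at P2, and quantile normalization by -0.12 at P2. No paired analysis was possible because each passage has 1 library. Depth limits most Hox genes to a few reads.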
